A study of Mus musculus with 11 samples.

Results

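The unfolded protein response and the integrated stress response were followed through 34 genes, out of 12393 genes that the array annotation names by a single symbol. They were taken by name from the known pathways, with earlier results of these data in view: 5 sensors and transcription factors, 10 chaperones and co-chaperones of the endoplasmic reticulum (ER), 8 genes of ER-associated degradation and the translocon, and 11 genes that the transcription factor ATF4 is known to switch on. All 34 were on the array, with 77 probe sets. Of these genes 23 passed the filter on dim probe sets, a log2 value over 4 in at least 5 of the 11 samples, and 11 did not. Transcripts were measured in whole liver of untreated male C57BL/6J mice, 15 to 20 weeks old, 5 of them wild type (WT) and 6 Gsr-null, each on its own single-colour Affymetrix array. The Gsr-null mice carry no working gene for glutathione reductase, the enzyme that regenerates reduced glutathione with NADPH. The labels do not say how the allele was made. Both genotypes share the strain, the sex and an afternoon harvest. Values are log2 levels of the brightest probe set of a gene, by its mean over the 11 samples, and a difference is Gsr-null minus WT on that scale.

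Secreted proteins, of which hepatocytes make large amounts, fold in the ER with the help of chaperones such as BiP (Hspa5). When unfolded protein builds up, the sensors IRE1 (Ern1), PERK (Eif2ak3) and ATF6 act in parallel: IRE1 splices Xbp1 mRNA, ATF6 is cut to release a transcription factor, and PERK phosphorylates eIF2 alpha, which slows translation while favouring that of Atf4. The integrated stress response is the eIF2 alpha and ATF4 arm, which amino acid shortage, heme deficiency and viral RNA also switch on through other kinases. Array levels show transcript amounts only, not splicing of Xbp1, cleavage of ATF6 or phosphorylation.

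The promoters of these genes carry short elements known to bind the factors of each arm, and the elements differed between the chaperones and the ATF4 targets. RefSeq windows from 250 bases before to 50 bases after the start site (assembly GRCm38.p6) were at hand for 30 of the 34 genes, all but Hyou1, Atf6, Derl1 and Manf, and were searched on both strands among 32851 windows. The ER stress element (ERSE) was searched as CCAAT and CCACG with 9 bases between them, ERSE-II as ATTGG and CCACG with 1 base between them, the unfolded protein response element (UPRE) as TGACGTGG or TGACGTGA, and the C/EBP-ATF element bound by ATF4 as TGATGNAA. ERSE was found in 8 of the 30 genes, 6 of them among the 8 chaperones with a window (Hspa5, Hsp90b1, Calr, Canx, Dnajc3 and Creld2), and in 0.119% of all windows. Syvn1 and Derl3 were the other two, and no ATF4 target held it. ERSE-II was found in Herpud1, against 0.0365% of all windows, and the UPRE letters in Hspa5, against 1.12%. The C/EBP-ATF letters were found in 6 of 11 ATF4 targets (Asns, Atf3, Chac1, Nupr1, Trib3 and Vldlr) and in Herpud1, against 3.97% of all windows. Matches of different elements in one gene, in Hspa5 and Herpud1, did not overlap. Genes and elements were both taken from the known pathways, so a high share of matches among the members is no independent finding. A match is a description of the letters and no evidence of binding in these livers.

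The last 180 bases before the start site follow for 8 genes, each 5′ to 3′ on the gene's strand. Capitals mark ERSE in Hspa5, Creld2, Calr, Dnajc3 and Syvn1, on either strand, ERSE-II in Herpud1 and the C/EBP-ATF element in Asns. Sdf2l1 is shown because it had the largest difference among the chaperones, and none of these elements was found in its window.
Hspa5, chr2:34771910-34772089, plus strand: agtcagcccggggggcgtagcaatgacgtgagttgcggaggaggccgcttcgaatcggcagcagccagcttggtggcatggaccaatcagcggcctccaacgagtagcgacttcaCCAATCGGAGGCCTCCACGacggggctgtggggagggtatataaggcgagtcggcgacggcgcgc
Creld2, chr15:88819466-88819645, plus strand: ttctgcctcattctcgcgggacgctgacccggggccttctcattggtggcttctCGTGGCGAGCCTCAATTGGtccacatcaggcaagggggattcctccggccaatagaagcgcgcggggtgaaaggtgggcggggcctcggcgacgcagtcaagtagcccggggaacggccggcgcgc
Calr, chr8:84846932-84847111, minus strand: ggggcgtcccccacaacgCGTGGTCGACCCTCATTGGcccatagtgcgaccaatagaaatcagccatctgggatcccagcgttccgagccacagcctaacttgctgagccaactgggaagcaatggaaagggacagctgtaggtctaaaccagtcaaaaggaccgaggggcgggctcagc
Dnajc3, chr14:118937752-118937931, plus strand: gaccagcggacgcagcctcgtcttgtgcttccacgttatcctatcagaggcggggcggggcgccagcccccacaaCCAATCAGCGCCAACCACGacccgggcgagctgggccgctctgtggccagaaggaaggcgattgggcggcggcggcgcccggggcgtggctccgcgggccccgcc
Syvn1, chr19:6046396-6046575, plus strand: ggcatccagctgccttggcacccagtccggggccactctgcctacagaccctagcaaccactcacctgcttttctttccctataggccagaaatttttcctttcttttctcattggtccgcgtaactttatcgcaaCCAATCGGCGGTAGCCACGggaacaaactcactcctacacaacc
Herpud1, chr8:94386249-94386428, plus strand: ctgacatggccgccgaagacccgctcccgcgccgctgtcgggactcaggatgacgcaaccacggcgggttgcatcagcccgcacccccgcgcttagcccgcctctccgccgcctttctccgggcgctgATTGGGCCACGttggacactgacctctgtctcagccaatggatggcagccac
Asns, chr6:7693210-7693389, minus strand: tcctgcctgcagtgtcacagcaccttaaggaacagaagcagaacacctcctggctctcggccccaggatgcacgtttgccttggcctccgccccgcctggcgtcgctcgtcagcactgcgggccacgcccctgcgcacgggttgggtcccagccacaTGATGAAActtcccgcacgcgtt
Sdf2l1, chr16:17132384-17132563, minus strand: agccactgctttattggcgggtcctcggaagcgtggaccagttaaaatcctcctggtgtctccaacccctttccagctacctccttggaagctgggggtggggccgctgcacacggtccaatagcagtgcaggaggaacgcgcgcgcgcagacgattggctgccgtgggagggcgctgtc

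Samples were checked before the stress genes were read. Gsr was at 6.62 to 6.93 in the WT and at 4.71 to 5.29 in the Gsr-null samples, with no overlap; where its probe set lies relative to the disrupted part was not analysed here. All 8 hepatocyte markers measured passed the filter. Their summed linear level was 94250 to 116100 in WT and 97470 to 120100 in Gsr-null samples. Plasma and B cells, which are rich in ER, were near the floor, as 7 of 8 markers stayed under 4 in all samples. The exception, Ighm, was over 4 in 4 samples, at 4.67 in WT 3 and 4.32, 4.15 and 9.23 in Gsr-null 2, 3 and 4. The sum of the markers was 38.9 to 59.6 in WT and 41.4 to 633 in Gsr-null samples. Pancreatic acinar cells were likewise near the floor in 7 of 8 markers, with a sum, mostly Cela1, of 306 to 794 in WT and 229 to 849 in Gsr-null samples. One feature of the arrays divides the samples across genotype. The 3′ minus 5′ signal of the control probe sets for Gapdh and Actb, which reflects RNA integrity and labelling, was 0.544 to 0.703 in WT 2, WT 4 and Gsr-null 1, 2 and 3, here the lower control set, and 1.20 to 1.75 in the other 6 samples, the higher control set. The arrays of Gsr-null 2 and 3 also had a higher floor, with a 5th percentile of 1.79 and 1.76 against 1.53 to 1.62 elsewhere.

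None of the 23 tested genes was called between the genotypes in limma at an adjusted p under 0.05 over all 9560 tested probe sets. Among all those probe sets, 0.167% were called higher and 0.22% lower in Gsr-null livers, so a list of this length would hold few calls at that rate. At an unadjusted p under 0.05 limma again had 0 of 23 genes by their brightest probe set. Over all 48 tested member probe sets it had 2, or 4.17%, which were second probe sets of Hyou1 and Ssr1, against 8.36% of all probe sets. No gene had all its Gsr-null samples above all its WT samples, against 0.575% of probe sets. The smallest limma adjusted p was 0.686, for Ssr1. By sign, 18 of 23 differences were above 0 and 5 below, with a median of 0.14, while 43.3% of all probe sets were above 0 with a median of -0.03. The number of arrays limits what could be seen. The 95% intervals reach from -0.25 to 0.25 for Canx, the calnexin of glycoprotein folding, but from -0.31 to 2.27 for Sdf2l1.

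**Figure D1:**
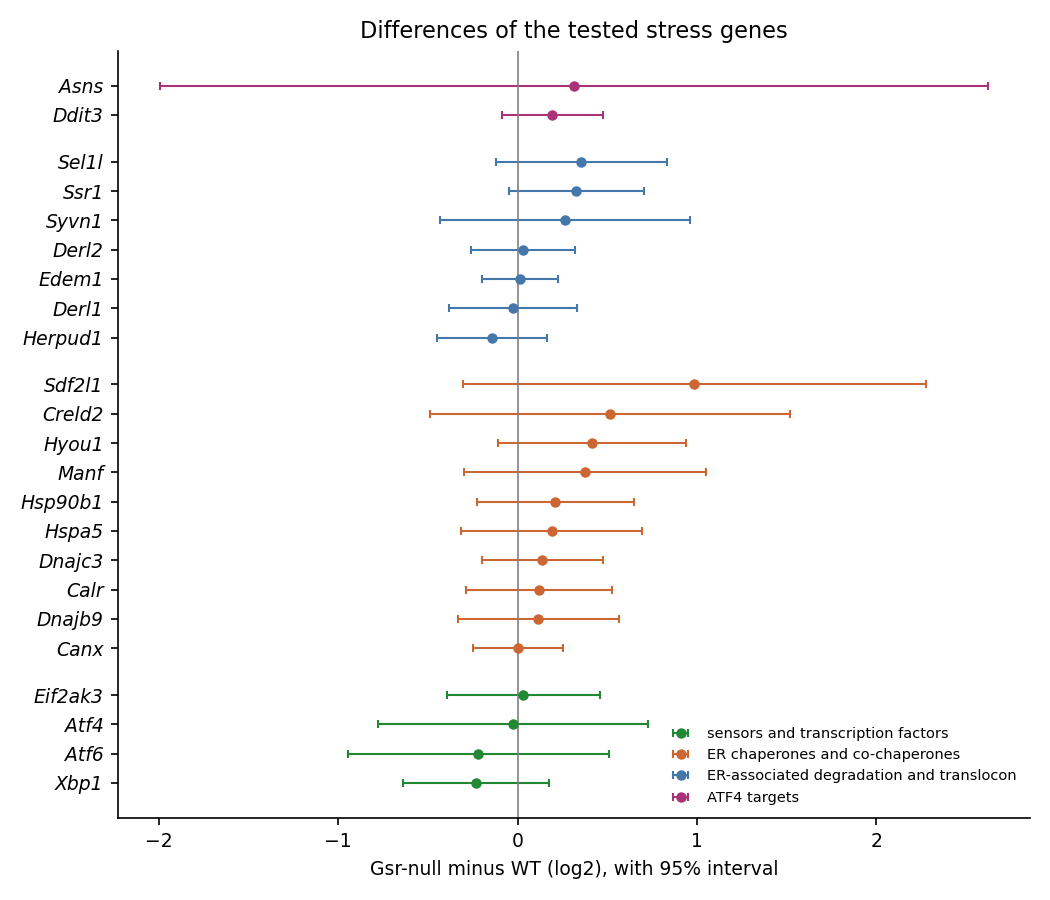
Difference Gsr-null minus WT (log2) with its 95% interval for the 23 tested genes, coloured by role. Every interval spans 0; the widest are those of Asns and Sdf2l1, and all 10 chaperones (orange) have a point estimate above 0.

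The chaperones leaned upward as a group without any of them passing the test. By the brightest probe set all 10 differences were above 0, from 0.00 for Canx to 0.98 for Sdf2l1. Their median was 0.20 and their lowest limma adjusted p 0.749. The 10 signs are not independent, as they come from the same 11 samples. Pairs of chaperones had a median Pearson's r of 0.598 over these samples. Another tested probe set of Dnajc3 was below 0, at -0.37. By the mean over the tested probe sets of a gene all 10 were above 0. Without Gsr-null 2 and 3, whose arrays had the higher floor, 6 of 10 were above 0 and the median was 0.06. The median was 0.13 without Gsr-null 3 alone, 0.13 with array weights and 0.30 without Gsr-null 4. Sdf2l1 is a luminal protein that works with BiP and its J-domain partners. It stood at 7.10, 6.55, 7.21, 6.27 and 7.99 in WT 1 to 5, and in Gsr-null samples ranged from 5.93 in sample 4 through a median of 8.49 to 9.61 in sample 3. Gsr-null 1, 2, 3 and 6 lay above every WT sample, while Gsr-null 4 lay below every one, so the groups overlapped. The difference was 0.98 (SE 0.593, limma adjusted p = 0.776), a 1.98-fold higher mean.

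Hspa5, the BiP chaperone itself, was at 12.03, 12.26, 12.49, 12.56 and 12.33 in WT livers and at 11.88 to 13.35 with a median of 12.50 in Gsr-null livers. Gsr-null 3 was highest and Gsr-null 5 lowest of all 11 samples. The difference was 0.19 (SE 0.232, limma adjusted p = 0.952), with a 95% interval of -0.31 to 0.69. Hsp90b1, the ER member of the HSP90 family known as GRP94, was at 12.73, 12.27, 12.50, 12.74 and 12.21 in WT and at 12.04 to 13.15 with a median of 12.81 in Gsr-null samples. Its difference was 0.21 (SE 0.2, limma adjusted p = 0.932). Here the highest sample was Gsr-null 6 and not Gsr-null 3.

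Hyou1, the large chaperone GRP170 and a nucleotide exchange factor of BiP, was at 8.86, 8.67, 9.04, 8.75 and 8.94 in WT livers, a narrow band, and at 8.55 to 9.95 with a median of 9.32 in Gsr-null livers. Gsr-null 1, 2, 3 and 6 were above all WT samples and Gsr-null 5 was below them all. Its difference was 0.41 (SE 0.241, limma adjusted p = 0.749). A second Hyou1 probe set gave 1.26 (SE 0.351, limma adjusted p = 0.245), also not called. Manf, a secreted ER protein that binds BiP, was at 10.02, 10.32, 10.73, 10.79 and 10.56 in WT and at 10.02 to 11.89 with a median of 10.89 in Gsr-null samples. Its difference was 0.38 (SE 0.311, limma adjusted p = 0.898).

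Creld2, a disulfide isomerase-like ER protein, was at 7.45, 7.22, 8.18, 7.42 and 8.38 in WT livers and at 7.07 to 10.12 with a median of 8.20 in Gsr-null livers. The high value belonged to Gsr-null 3 alone, as the other 5 Gsr-null samples reached at most 8.54. Its difference was 0.52 (SE 0.462, limma adjusted p = 0.92). Dnajc3, the J-domain co-chaperone P58IPK, was at 10.15, 9.78, 9.68, 9.83 and 9.79 in WT and at 9.47 to 10.25 with a median of 10.06 in Gsr-null samples, a difference of 0.14 (SE 0.155, limma adjusted p = 0.948). Its other tested probe sets gave -0.37, 0.26, 0.04 and 0.24, so its sign depends on the probe set. The remaining chaperones were Calr (0.12), the lectin chaperone calreticulin, Dnajb9 (0.11), a J-domain partner of BiP, and Canx (0.00).

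**Figure D2:**
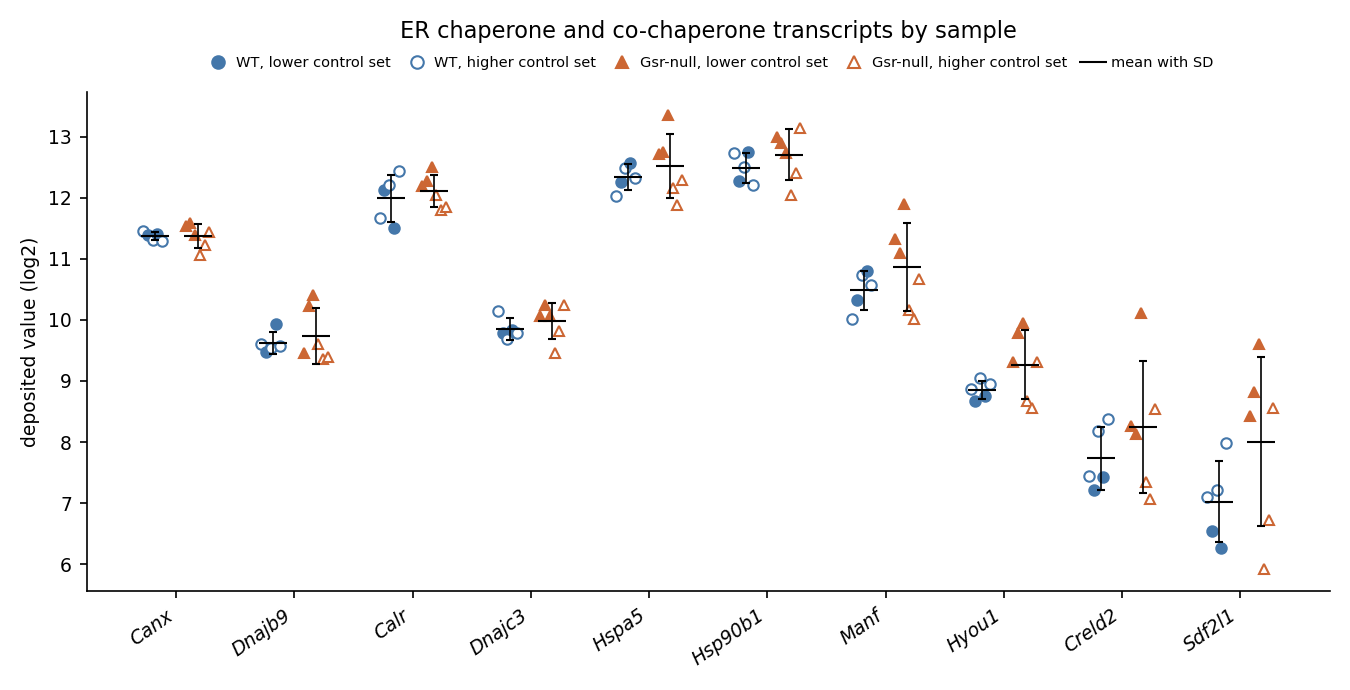
Deposited log2 values of the 10 ER chaperones and co-chaperones in each of 5 WT (circles) and 6 Gsr-null (triangles) samples, filled for the lower and open for the higher control set, with mean and SD. The Gsr-null triangles spread farther than the WT circles in 9 of 10 genes, and filled triangles tend to lie above open ones; levels of different genes are not comparable on this axis.

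Spread between animals was the more visible feature of the chaperones. The SD was larger in Gsr-null than in WT samples for 9 of 10 chaperones, with a median SD ratio of 2.17, while 60.8% of all tested probe sets had a larger SD in Gsr-null samples with a median ratio of 1.16. This was not particular to the chaperones. The SD was also larger in Gsr-null samples for 4 of 4 sensors and transcription factors (median ratio 1.73) and 2 of 2 ATF4 targets (1.32). It was larger for 4 of 7 degradation and translocon genes (1.25). Gsr-null 3 was the highest of 11 samples in 7 of 10 chaperones and Gsr-null 2 was among the top 3 in 9 of 10. At the other end, Gsr-null 4 and Gsr-null 5 were among the lowest 3 in 8 and 7 of 10, and between them they were the lowest sample in 9 of 10. No WT sample was the highest for any chaperone. Across all 23 genes Gsr-null 3 was highest in 12, and Gsr-null 4 and 5 were lowest in 6 and 7.

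The chaperone differences were not the same in both control sets. Within the lower set (2 WT, 3 Gsr-null) 10 of 10 chaperones were higher in Gsr-null samples with a median difference of 0.51, and within the higher set (3 WT, 3 Gsr-null) 1 of 10 was, with a median of -0.14. Sdf2l1 differed by 2.54 within the lower and by -0.37 within the higher set, Creld2 by 1.52 and -0.35, Hyou1 by 0.97 and -0.10, and Manf by 0.88 and -0.16. The second Hyou1 probe set was above 0 in both, at 1.86 and 0.63, so the sign of Hyou1 within the higher set depends on the probe set. Of all tested probe sets, 48.3% were above 0 within the lower and 41.2% within the higher set, with medians of -0.01 and -0.05. The interaction of genotype and control set in limma was called for 0 of 23 genes and for 0% of the 9560 probe sets, the lowest limma adjusted p of a member being 0.292 for Sdf2l1. At an unadjusted p under 0.05 there were 6 of 23 genes (Sdf2l1, Hyou1, Xbp1, Manf, Eif2ak3 and Creld2), against 11.3% of all probe sets. In the same fit with array weights, for which the weight estimate stopped before convergence, limma called 7 of the 23, adding Hspa5 to those 6, and 10.7% of all probe sets. Without Gsr-null 6 it called Hyou1 and Sdf2l1, and 1.82% of all probe sets.

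Some markers of other liver cells differed with the same division and others did not. Of the 9 tested Kupffer cell and macrophage markers, 8 were higher in Gsr-null samples within the lower control set and 0 within the higher one, with median differences of 0.35 and -0.57. Their summed linear level was 2059 to 3261 in WT and 1634 to 3994 in Gsr-null samples, and none of the 10 on the array was under 4 in all samples. Sinusoidal endothelial markers were higher in 7 of 8 and 1 of 8, with a sum of 932 to 1589 in WT and 892 to 1597 in Gsr-null samples, and Pecam1 under 4 throughout. Hepatocyte markers were higher in 5 of 8 and 1 of 8, with median differences of 0.06 and -0.06. Stellate cell and fibroblast markers were higher in 5 of 6 within the lower and 4 of 6 within the higher set, with medians of 0.38 and 0.26. Their sum was 1731 to 2149 in WT and 1493 to 2498 in Gsr-null samples, with Lrat, Col1a1 and Des under 4 throughout. Cela1, the only acinar marker tested, differed by 1.29 and -0.70, and Alas2, the only erythroid one, by 0.55 and 0.57. The part of RNA integrity, array floor or cell makeup in the chaperone values was not tested. In whole tissue, fewer cells of a type and less RNA per cell cannot be told apart.

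**Figure D3:**
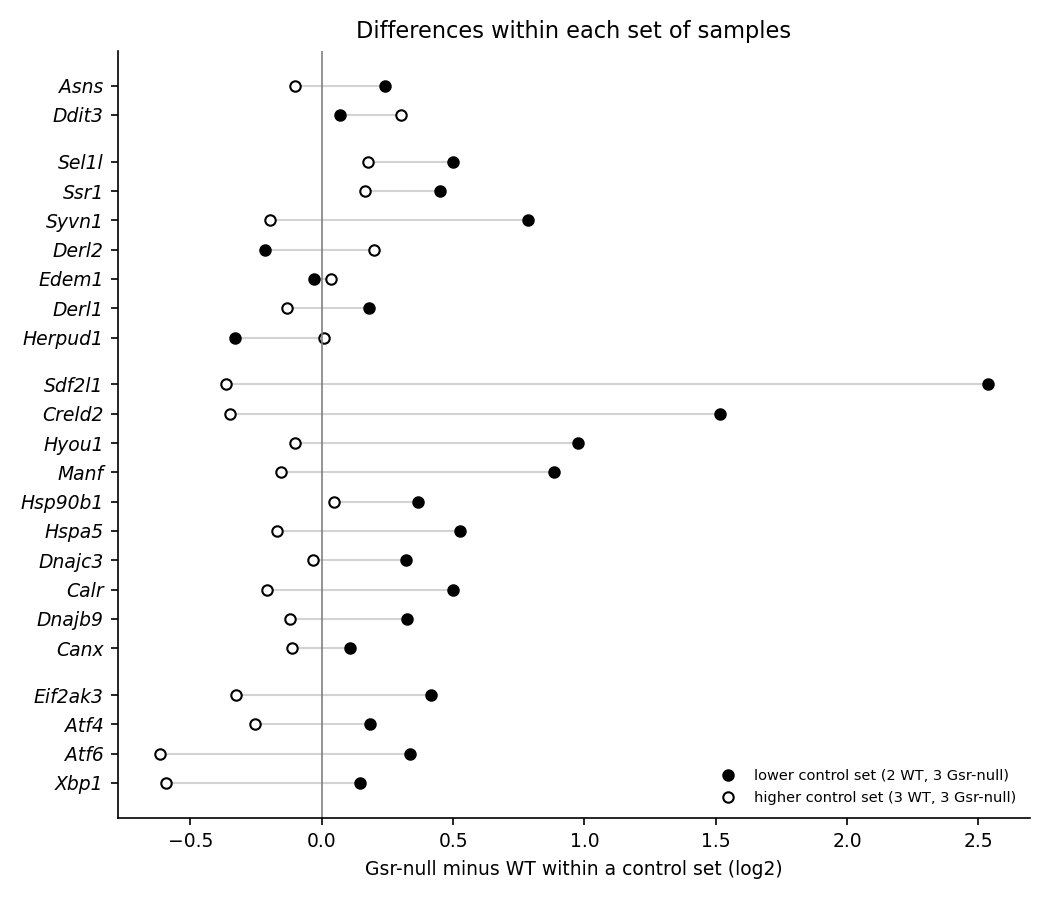
Difference Gsr-null minus WT (log2) of the 23 tested genes within the lower (filled) and the higher (open) control set, joined by a grey line. All 10 chaperones lie right of 0 within the lower set and only Hsp90b1 does within the higher set; Sdf2l1 and Creld2 have the longest lines.

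Lcn2, an acute phase transcript, shared part of its order over the Gsr-null animals with the chaperones, and differed from Hspa5 in its highest samples. It was at 3.53 to 5.79 in WT samples, and at 13.03 in Gsr-null 1, 8.25 in 2, 10.27 in 3, 5.90 in 4, 7.50 in 5 and 12.58 in 6. Its difference of 4.98 (SE 1.17) was not called either (limma adjusted p = 0.146), although the groups did not overlap. Gsr-null 4 and 5, lowest in most chaperones, were also the Gsr-null samples with least Lcn2, while Gsr-null 1 and 6 exceeded Gsr-null 3 in Lcn2 and not in Hspa5. Among WT samples, WT 1 had the most Lcn2, at 5.79, and the least Hspa5, at 12.03. WT 4 had the most Hspa5, at 12.56, with Lcn2 at 4.37. The relation between the acute phase and the chaperones was not tested.

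Upstream of the chaperones, the sensors and transcription factors did not lean upward over all 11 samples. Xbp1, the factor that IRE1 activates by splicing, was at 10.97, 11.25, 11.39, 11.04 and 11.31 in WT and at 10.52 to 11.54 with a median of 10.97 in Gsr-null samples. Its difference was -0.23 (SE 0.186, limma adjusted p = 0.89), and its 3 other tested probe sets were also below 0, at -0.34, -0.11 and -0.32. Gsr-null 4, 5 and 6 were below every WT sample, and Gsr-null 3 was above them all.

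Atf6, the membrane-bound factor that is released by cleavage, was at 7.03, 6.68, 7.24, 6.44 and 7.79 in WT and at 5.70 to 7.50 with a median of 7.07 in Gsr-null samples, a difference of -0.22 (SE 0.335, limma adjusted p = 0.97). Eif2ak3, which encodes PERK, was at 4.82, 5.03, 5.36, 5.00 and 5.26 in WT and at 4.52 to 5.69 with a median of 5.08 in Gsr-null samples, a difference of 0.03 (SE 0.197, limma adjusted p = 0.999). Atf4 was at 9.26, 8.60, 9.34, 9.84 and 8.79 in WT and at 7.86 to 9.96 with a median of 9.26 in Gsr-null samples, a difference of -0.03 (SE 0.346, limma adjusted p = 0.999). The groups overlapped in each of these 3 genes. Ern1, which encodes IRE1, was below the filter in every sample, at 3.22 to 3.56 in WT and 3.16 to 3.48 in Gsr-null livers. The median difference of the 4 tested genes was -0.12, and it was 0.26 within the lower and -0.46 within the higher control set. Like the chaperones they divided by control set. Within the lower set 4 of 4 were above 0, against 48.3% of all tested probe sets, and within the higher set 0 of 4, against 41.2%.

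The degradation and translocon genes were mixed, with 5 of 7 differences above 0 and a median of 0.03. Ssr1, a subunit of the translocon-associated protein complex, was at 8.88, 9.53, 9.28, 9.22 and 9.31 in WT and at 9.08 to 10.01 with a median of 9.61 in Gsr-null samples. Its difference was 0.33 (SE 0.173, limma adjusted p = 0.686), and a second probe set gave 1.19 (SE 0.406, limma adjusted p = 0.386). Sel1l, the adaptor of the HRD1 ubiquitin ligase, was at 6.08, 6.70, 5.95, 5.83 and 6.27 in WT and at 6.10 to 7.05 with a median of 6.44 in Gsr-null samples, a difference of 0.35 (SE 0.219, limma adjusted p = 0.791). Both genes had overlapping groups with Gsr-null 3 as the highest sample.

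Syvn1, the HRD1 ligase itself, was at 6.07, 6.17, 6.49, 5.94 and 6.46 in WT and at 5.76 to 7.94 with a median of 6.33 in Gsr-null samples, a difference of 0.27 (SE 0.321, limma adjusted p = 0.952). The value of 7.94 came from Gsr-null 3, and the other 5 Gsr-null samples were between 5.76 and 6.56. Herpud1, a membrane protein that organises the degradation complex, went the other way from the chaperones. It was at 10.91, 11.23, 11.31, 11.23 and 10.96 in WT and at 10.68 to 11.30 with a median of 10.96 in Gsr-null samples, a difference of -0.14 (SE 0.141, limma adjusted p = 0.936). The remaining 3, Edem1, a lectin that hands glycoproteins to degradation, and the derlins Derl1 and Derl2, had differences of 0.01, -0.02 and 0.03. Derl3, the derlin of secretory cells, was not tested: it exceeded 4 in WT 5 and in Gsr-null 2, 3 and 6 only, at 2.61 to 5.14 in WT and 3.18 to 5.53 in Gsr-null samples.

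The ATF4 targets were mostly at the floor of the array. Of 11, only Ddit3 and Asns passed the filter. Ddit3, which encodes the death-associated factor CHOP, was at 3.79, 4.13, 4.13, 4.04 and 4.12 in WT and at 3.96 to 4.55 with a median of 4.25 in Gsr-null samples. It therefore stayed close to the filter level in every sample, with a difference of 0.19 (SE 0.129, limma adjusted p = 0.822) and a 95% interval of -0.09 to 0.47. Atf3, an early stress-induced factor, was at 2.54 to 2.62 in WT and 2.49 to 2.71 in Gsr-null samples. Trib3, a pseudokinase induced with CHOP, was at 3.24 to 4.02 in WT and 2.72 to 4.42 in Gsr-null samples.

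The other 7 below the filter were Chac1, which degrades glutathione, the stress-induced Sesn2, Ppp1r15a, the phosphatase subunit GADD34 that reverses eIF2 alpha phosphorylation, Psat1 and Phgdh of serine synthesis, Nupr1 and the lipoprotein receptor Vldlr. Chac1, at 3.57 to 4.63 in WT and 3.06 to 4.10 in Gsr-null samples, was the only one of them above 4 in more than 1 sample, with 4 such samples. Sesn2 was at 3.21 to 4.00 over all 11 samples, Ppp1r15a at 2.83 to 3.52, Psat1 at 2.17 to 2.88, Phgdh at 2.56 to 3.34 and Vldlr at 2.66 to 3.33. Nupr1 was at 2.42 to 2.84 in WT and at 2.80 to 3.77 in Gsr-null samples, under 4 in all of them. A level at the floor sets only a bound, so changes below it were not measurable here.

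Asns, the asparagine synthetase that ATF4 controls through the element printed above, fell into a low and a high group of samples, in both genotypes. It was at 2.26, 5.42, 3.49, 6.99 and 5.60 in WT 1 to 5 and at 7.71, 5.20, 6.44, 2.23, 2.78 and 6.03 in Gsr-null 1 to 6. WT 1, WT 3, Gsr-null 4 and Gsr-null 5 lay at or under 3.49 and the other 7 samples at or above 5.20. All 4 low samples were in the higher control set, and all 5 samples of the lower set were among the high ones. The genotype difference was 0.31 (SE 1.06, limma adjusted p = 0.999), with an interval of -2.00 to 2.62. A second tested probe set of Asns was also lowest in these 4 samples, at 2.21 to 2.87. Its other values began at 4.01, just over the filter level, so the gap was smaller there. Its difference was 0.40 (SE 0.709, limma adjusted p = 0.979).

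**Figure D4:**
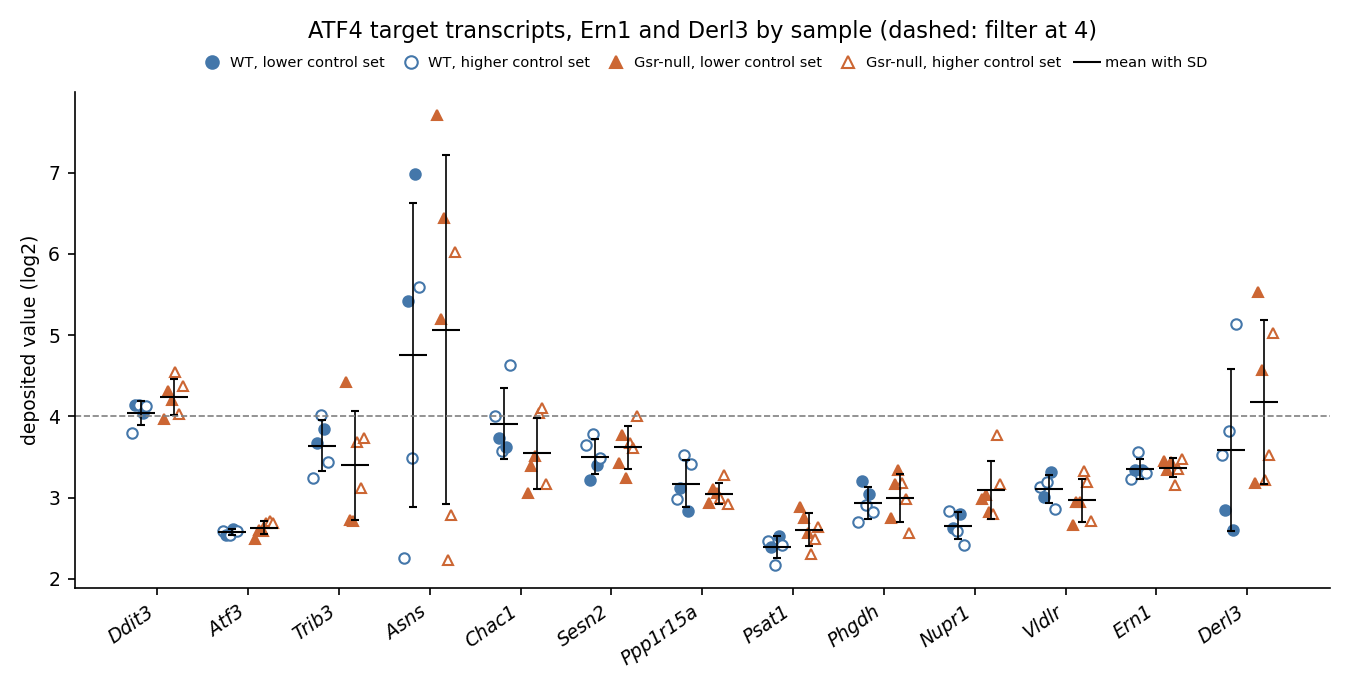
Deposited log2 values of the 11 ATF4 targets and of the untested Ern1 and Derl3 in each sample, with mean and SD and the filter level of 4 (dashed). Most values lie under the line; Asns falls into a low and a high cluster in both genotypes, and the low points are all open symbols (higher control set).

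Across the 11 samples some chaperones followed Hspa5 and others did so only loosely. Of the 9 other chaperones, 5 had an r over 0.7 with it. Manf tracked it most closely (Pearson's r = 0.975, Spearman's rho = 0.982, permutation adjusted p = 0.00018 and 0.00036 over the 18 pairs computed, raw p = 1e-05 for r, the smallest 100000 permutations can give). By r, 7 of 16 pairs with Hspa5 passed at an adjusted p under 0.05: Manf, Hyou1 (r = 0.841), Creld2 (0.828), Dnajb9 (0.792), Syvn1 (0.784), Ssr1 (0.734) and Sdf2l1 (0.709). By rho only Manf and Hyou1 did. Without Gsr-null 3 and Gsr-null 5, the samples farthest from the Hspa5 median, only Manf did (r = 0.957, permutation adjusted p = 0.00288, n = 9). There Hyou1 had an r of 0.654, Ssr1 0.629, Dnajb9 0.502, Sdf2l1 0.489, Creld2 0.427 and Syvn1 0.075, in a narrower range of Hspa5 and with fewer samples. Among all other tested probe sets 4.67% had an r over 0.7 with Hspa5.

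With genotype means subtracted 6 of the 16 pairs passed, with an r of 0.978 for Manf, 0.847 for Hyou1 and 0.816 for Creld2, and Sdf2l1 no longer did (r = 0.69, permutation adjusted p = 0.0503). Of all other probe sets 5.49% then had an r over 0.7. Over all 11 samples as measured, 9 pairs did not pass. The chaperones among them were Calr (r = 0.572, permutation adjusted p = 0.128), Canx (r = 0.434, permutation adjusted p = 0.272), Hsp90b1 (r = 0.399, permutation adjusted p = 0.316) and Dnajc3 (r = 0.322, permutation adjusted p = 0.436). Herpud1 (r = 0.033, permutation adjusted p = 0.926) and Derl1 (r = -0.496, permutation adjusted p = 0.201) did not pass either. Sensors and transcription factors were outside the tested pairs. Their r with Hspa5 was 0.754 for Eif2ak3, 0.721 for Xbp1, 0.329 for Atf4 and 0.046 for Atf6. With genotype means subtracted it was 0.765, 0.901, 0.345 and 0.098. The pooled relation of Asns and Hspa5 is not given as a result because Asns falls into clusters; within the 7 high samples r was 0.315.

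**Figure D5:**
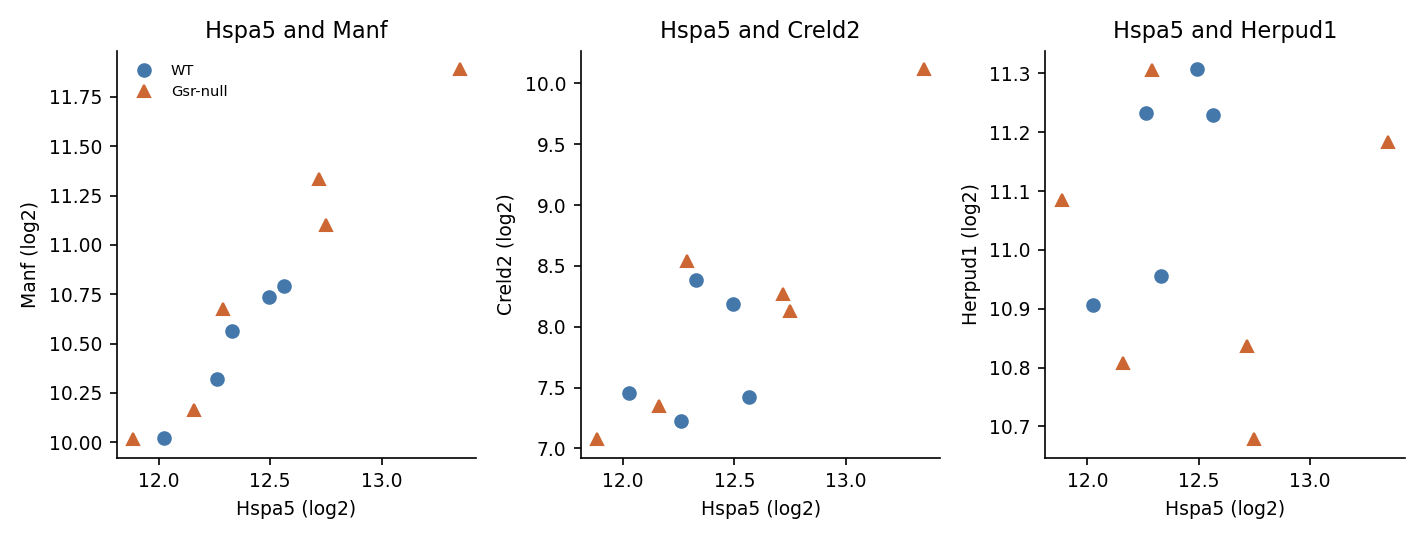
Log2 level of Manf, Creld2 and Herpud1 against Hspa5 in the 5 WT (circles) and 6 Gsr-null (triangles) samples. Manf lies close to a line through both genotypes (r = 0.975), the Creld2 relation leans on the single high Gsr-null sample at the upper right, and the Herpud1 points are scattered (r = 0.033).

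Other genes of these pathways were read from lists of their usual members. Of 42 further ER stress genes, 38 were on the array and 35 tested. In limma 0 were called higher and 0 lower, against 0.167% and 0.22% of all tested probe sets. At an unadjusted p under 0.05 limma had 3 of the 35, against 8.36% of all. Differences were above 0 in 28 of the 35 (80%) with a median of 0.12, against 43.3% of all with a median of -0.03. Within the lower control set 33 were above 0 (94.3%, against 48.3% of all). Within the higher one 11 were (31.4%, against 41.2% of all). The 4 with the smallest p were Dnajc10, an ER disulfide reductase (0.78, SE 0.227, limma adjusted p = 0.28), Ssr3 of the translocon-associated complex (0.34), Pdia6, a protein disulfide isomerase (0.41), and the ATF6 relative Atf6b (0.23). Dnajc10 was at 4.28 to 4.78 in WT and 4.74 to 6.07 in Gsr-null samples, so that only Gsr-null 5 was within the WT range.

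Of 50 further integrated stress response genes, 44 were on the array and 30 tested, and limma again called 0. At an unadjusted p under 0.05 limma had 3 of the 30, against 8.36% of all tested probe sets. Differences were above 0 in 13 of the 30 (43.3%), against 43.3% of all, with a median of -0.03 in both. Atf5, an ATF4-related factor, had the smallest p (0.64, SE 0.196, limma adjusted p = 0.297), at 9.15 to 9.85 in WT and 9.54 to 10.53 in Gsr-null samples. Next were Gadd45a, a growth arrest gene (-0.61), Cth, the cystathionine gamma-lyase of cysteine synthesis (0.41), and the amino acid transporter Slc38a2 (-0.45), with limma adjusted p of 0.556 to 0.686. Both directions thus occurred among the 4 integrated stress response genes with the smallest p.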

How the data were processed

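Liver RNA of 5 WT and 6 Gsr-null mice was hybridised to single-colour arrays. The deposited table holds 1 log2 value per probe set and sample, made by the authors with GCRMA per the submitters' processing notes; version and filters are not given in the sources used here. The log2 scale is read from the values. GCRMA corrects background by probe sequence and normalizes between arrays, which can pull apart or compress low values. Of 22690 probe sets, 64 controls were left out. Probe sets over 4 in at least 5 samples (9560) entered a linear model (lmFit and eBayes of limma 3.58.1, R 4.3.3), with Benjamini-Hochberg adjustment over all of them. Correlations used 100000 permutations. The fits were tested on simulated data.

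Genes were named through the platform annotation and RefSeq (GRCm38.p6). Some probe sets can bind several transcripts, of the same gene or of related genes. They end in _s_at, _x_at or _a_at, and those of Hspa5, Hsp90b1, Canx, Hyou1, Xbp1, Atf4, Derl1 and Asns are among them. Of 25 further tested member probe sets, 20 had the sign of the representative one. The members and lists were chosen with earlier results of these data known. Named are all members with values for the 12 smallest p, 14 fixed genes such as Hspa5, Xbp1, Atf4 and Asns, and 4 genes of each further list. Alternatives covered filter, normalization, probe set, variance model, array weights, replicate block, control set and omitted samples. Promoter sequences are RefSeq's.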

Additional observations from a re-analysis of the deposited data

Results flagged for a closer look

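A single sample stood apart from the rest of its group in 4 of 88 groups of values examined, where chance would give about 4.4. Dnajb9 in WT 4 was at 9.94, against 9.48 to 9.60 in the other WT samples. Syvn1 in Gsr-null 3 was at 7.94, while the rest of its group was at 5.76 to 6.56. Edem1 in WT 1 was at 9.70, against 9.94 to 9.96. Derl1 in Gsr-null 3 was at 9.34, against 9.87 to 9.91.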

How the results depend on the processing

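No member was called for a genotype difference under the alternatives reported here, where the lowest limma adjusted p was 0.0936, for Sdf2l1 within the lower control set. Omissions of Gsr-null 4 and 5 together and of 1 and 6 together were also tried after the values were seen. They are not reported, because those samples had been picked by their levels; no member was called, but the first took Sdf2l1 below that p, to just above the threshold. With the replicate block 0 members were called; the replicate numbers do not pair the samples, since same-numbered samples correlated at -0.243 to 0.036 in their deviations and 0 of 5 correlated best with their own number. Of 549 single-gene values under alternatives, 485 kept the sign of the reported difference and 64 did not, 13 of them within the higher and 6 within the lower control set and 8 without Gsr-null 2 and 3. By more than the spread between samples, 7 changed sign: Calr -0.21, Eif2ak3 -0.33, Hyou1 -0.10 and Sdf2l1 -0.37 within the higher control set, Xbp1 0.15 and Derl2 -0.22 within the lower one, and Derl2 -0.17 as the mean of its probe sets. Within the higher set the chaperone median was -0.14 and the sensor median -0.46. Within the lower set the sensor median was 0.26 and the degradation median 0.18. Over all samples with no filter the degradation median was 0.15. Members called in the interaction numbered 7 with array weights, and 0 to 2 when 1 sample was left out, 2 without Gsr-null replicate 6. Pairs with Hspa5 passing numbered 1 without the 2 farthest samples. Pairs with Asns passing numbered 1 with quantile normalization and 1 with median centring. Both times it was the pair with Hspa5, in which Asns falls into clusters. The pair with Ddit3, the other tested ATF4 target, had an r of 0.09 and 0.01 there. The cause was not tested. Signal near the floor limits the ATF4 targets.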

Other observations

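Ranked by Pearson's r with Hspa5 over the 11 samples among 6021 genes, Manf held rank 1, and the genes at ranks 2 to 5 were Dnajb11 (r = 0.939), Nop16 (0.932), Tmed3 (0.912) and Spcs2 (0.909). They were named after their values were seen. Dnajb11 is an ER J-domain co-chaperone, Tmed3 a cargo receptor between ER and Golgi, and Spcs2 a subunit of the signal peptidase, while Nop16 is a nucleolar protein. Ranks 6 to 10 were Crip2 (0.902), Ddost, a subunit of the oligosaccharyltransferase (0.901), Itsn1 (0.898), Spcs3 of the signal peptidase (0.898) and Sec63 of the translocon (0.897); Crip2 and Itsn1 are not ER genes. These values describe the 11 samples and carry no test.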
